A study of Homo sapiens with 45 samples.

Results

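Of 434524 fragment pairs listed for poised-enhancer capture Hi-C in human pluripotent cells, 10928 formed a constant core of contacts within 500 kb. A pair belonged to the core when bait and other end lay on 1 chromosome at most 500 kb apart, the other end was not itself a captured fragment, and the CHiCAGO score was at least 5 in each of the 3 pooled profiles. A CHiCAGO score rates the reads that join a captured fragment (the bait) to another against those its model predicts from distance and noise. The core made up 10.1% of the 108024 listed pairs of the same kind and range (95% exact binomial interval 9.94 to 10.3), and 2.51% of all listed pairs. Members were selected on these scores, so score values are given below as a description, with no test.

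The cells were HNES1, a human embryonic stem cell line, on day 5 of the transition from the naive to the primed state, in medium that held the tankyrase inhibitor XAV939 in every group. The groups received DMSO as control, UNC6852 at 2.5 µM, a PROTAC against EED, a core subunit of the histone methyltransferase PRC2, or an inhibitor of the EZH1 and EZH2 methyltransferase activity, UNC1999, at 1 µM. Both compounds were added 24 h before day 0 and renewed daily, and their doses differ, so their strengths are not compared. Each group had 15 libraries from 3 biological replicates in 2 batches and was represented by 1 pooled column, so no spread between replicates was available and no difference between profiles was tested. All cells came from 1 line, and their identity could not be checked against marker genes in contact data.

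Poised enhancers are distal elements that carry enhancer features together with the PRC2 mark H3K27me3 in pluripotent cells, and many lie near genes of later development. Polycomb complexes are known to draw such elements and their target genes together in the nucleus, while CTCF and cohesin shape contacts by a separate route. HOX genes, which pattern the body axis and sit in 4 tight clusters, are classic Polycomb targets.

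The sequences below are promoter windows that lay whole inside a core fragment, chosen after the values were seen, except MEIS2, TUBA1B and SIM1, whose contacts the naming rule picked. For DKK1 the rule picked contacts of neighbouring baits, not of the bait that holds the window. The windows are shown because they mark the genes of the contacts described next and cover low and high CpG content. Each runs from 250 bases before to 50 after a RefSeq start on GRCh38.p14, 5′ to 3′ on the gene's strand, with every CpG in capitals. The HOXA2 (chr7:27102634-27102933), HOXA6 (chr7:27147725-27148024) and HOXA7 (chr7:27156626-27156925) windows lie on the minus strand, in other ends that baits near SKAP2 met. The MEIS2 (chr15:37099057-37099356) and TUBA1B (chr12:49131346-49131645) windows are also minus-strand windows at other ends. The IL6 (chr7:22726950-22727249) and DKK1 (chr10:52314031-52314330) windows lie on the plus strand and that of SIM1 (chr6:100464872-100465171) on the minus strand, all inside baits.
HOXA2: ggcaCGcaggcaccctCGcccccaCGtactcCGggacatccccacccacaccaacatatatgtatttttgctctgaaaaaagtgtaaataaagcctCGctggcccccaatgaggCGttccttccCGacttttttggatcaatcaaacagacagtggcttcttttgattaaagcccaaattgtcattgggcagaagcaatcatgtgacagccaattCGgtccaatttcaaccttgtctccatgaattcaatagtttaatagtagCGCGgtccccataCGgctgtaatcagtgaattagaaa
HOXA6: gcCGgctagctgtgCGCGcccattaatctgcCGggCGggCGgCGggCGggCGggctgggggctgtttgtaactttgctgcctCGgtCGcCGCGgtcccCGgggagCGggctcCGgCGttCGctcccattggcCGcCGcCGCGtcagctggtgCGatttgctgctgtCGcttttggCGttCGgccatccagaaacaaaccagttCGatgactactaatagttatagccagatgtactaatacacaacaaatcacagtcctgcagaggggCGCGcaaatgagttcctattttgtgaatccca
HOXA7: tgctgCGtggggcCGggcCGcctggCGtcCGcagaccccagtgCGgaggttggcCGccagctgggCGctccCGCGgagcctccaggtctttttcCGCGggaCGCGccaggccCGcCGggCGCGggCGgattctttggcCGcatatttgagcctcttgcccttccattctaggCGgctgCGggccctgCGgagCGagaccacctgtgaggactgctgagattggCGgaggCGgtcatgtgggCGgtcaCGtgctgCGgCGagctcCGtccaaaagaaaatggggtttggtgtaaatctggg
MEIS2: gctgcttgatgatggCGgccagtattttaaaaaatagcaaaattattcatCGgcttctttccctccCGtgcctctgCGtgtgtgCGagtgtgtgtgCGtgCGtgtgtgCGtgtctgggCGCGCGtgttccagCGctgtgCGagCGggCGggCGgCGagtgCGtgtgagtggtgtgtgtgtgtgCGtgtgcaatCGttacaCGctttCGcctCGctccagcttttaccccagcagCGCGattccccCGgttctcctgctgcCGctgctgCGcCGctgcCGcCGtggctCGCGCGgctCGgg
TUBA1B: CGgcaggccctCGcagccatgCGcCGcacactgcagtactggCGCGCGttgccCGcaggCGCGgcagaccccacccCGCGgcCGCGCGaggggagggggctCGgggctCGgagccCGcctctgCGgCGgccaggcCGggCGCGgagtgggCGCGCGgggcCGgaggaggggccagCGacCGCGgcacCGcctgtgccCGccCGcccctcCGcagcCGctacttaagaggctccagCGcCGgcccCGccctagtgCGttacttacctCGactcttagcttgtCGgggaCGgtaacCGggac
IL6: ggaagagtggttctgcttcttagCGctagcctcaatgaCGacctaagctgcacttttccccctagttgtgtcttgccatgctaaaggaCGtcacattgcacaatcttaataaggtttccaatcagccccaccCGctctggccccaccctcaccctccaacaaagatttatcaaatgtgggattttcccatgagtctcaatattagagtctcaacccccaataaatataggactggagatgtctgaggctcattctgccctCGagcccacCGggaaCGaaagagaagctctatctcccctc
DKK1: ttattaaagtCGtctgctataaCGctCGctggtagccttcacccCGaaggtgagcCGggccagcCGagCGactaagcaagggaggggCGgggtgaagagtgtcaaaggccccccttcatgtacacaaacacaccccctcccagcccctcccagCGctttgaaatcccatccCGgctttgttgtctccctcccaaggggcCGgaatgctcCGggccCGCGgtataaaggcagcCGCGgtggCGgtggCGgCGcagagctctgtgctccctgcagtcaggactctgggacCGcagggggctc
SIM1: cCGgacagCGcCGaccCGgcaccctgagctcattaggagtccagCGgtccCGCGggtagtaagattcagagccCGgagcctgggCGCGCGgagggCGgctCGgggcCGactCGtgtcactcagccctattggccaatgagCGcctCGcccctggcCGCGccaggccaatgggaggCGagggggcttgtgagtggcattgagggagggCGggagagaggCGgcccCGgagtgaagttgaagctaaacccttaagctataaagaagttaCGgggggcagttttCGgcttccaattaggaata

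The HOXA2 window held 11 CpGs, IL6 7, DKK1 20, SIM1 25, HOXA6 29, HOXA7 31, MEIS2 35 and TUBA1B 43. Across the 296 promoter windows lying whole inside other ends of the core, the median was 12 CpGs, against 13.5 in other ends of pairs called in 2 profiles, 17 in those called in 1 and 21 over all 22197 windows. Fewer than 10 CpGs were found in 46.3% of the core windows (40.5 to 52.1) and in 29.9% of all windows. In other ends of pairs called in 2 profiles the share was 43.7% (38.9 to 48.6), an interval that overlaps that of the core. In those called in 1 it was 35.4% (33.3 to 37.6). Windows inside baits with core contacts had a median of 24 CpGs over 148 windows, above the 12 in core other ends but below the 28 in other baits. On either strand TATAAA occurred in 8.11% of core other-end windows and 9.47% of all windows, CCAAT in 36.5% and 34.7%, and the YY1 motif ATGGCGGC in 2.36% and 3.91%. These matches describe letters in the windows and no binding was measured.

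The HOXA cluster had the highest core share of the 4 HOX clusters. Of 172 pairs with a HOXA or EVX1 gene end, 51 were core, or 29.7% (22.9 to 37.1), against the 10.1% over all pairs in range. The largest HOXA locus joined HOXA3 to HOXA9 with a stretch next to SKAP2, which encodes an adaptor protein of Src-family kinases. This locus held 54 core contacts of 14 baits between chr7:26844412-26869217 and chr7:27115730-27163665, and its median scores were 10.4 with DMSO, 9.45 with UNC6852 and 10.1 with UNC1999. It was seen from both sides, with 33 contacts from baits on the SKAP2 side and 21 from baits inside the cluster. A bait at the end of HOXA5, a regulator of thoracic and lung patterning (chr7:27139395-27140319), met the SKAP2 side (chr7:26849794-26855071) at 21.9 with DMSO, 15.04 with UNC6852 and 17.0 with UNC1999. In the opposite direction a bait on the SKAP2 side (chr7:26859091-26859236) met chr7:27134836-27138797 at 17.8, 20.7 and 18.4 in the same order. The adjacent SKAP2-side bait (chr7:26858728-26859090) met that same bin at 16.9, 15.6 and 16.5, with DMSO highest. The order of the profiles thus differed between neighbouring baits. These contacts do not use the fragments of the HOXA5 contact, so no effect of direction is read from them.

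The HOXA2 promoter printed above was met by 6 baits of the SKAP2 side, 241 to 247 kb away. HOXA2 patterns the hindbrain and the second pharyngeal arch. The bait nearest to it (chr7:26862758-26864113) scored 18.2 with DMSO, 12.6 with UNC6852 and 13.8 with UNC1999. Its neighbour at chr7:26859091-26859236 scored 6.18, 13.4 and 14.1 for the same other end, the opposite order for DMSO. Neighbouring fragments of 1 stretch therefore gave different orders of the profiles for 1 promoter. HOXA6 was met by 3 of these baits and HOXA7 by 2, and the HOXA7 contacts scored between 6.23 and 9.54 over the 3 profiles.

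In the HOXC cluster 65 of 348 pairs were core, or 18.7% (14.7 to 23.2), and all 9 HOXC genes had at least 1 core contact. The main locus joined HOXC4 to HOXC11 with a stretch at SMUG1, a uracil-DNA glycosylase of base excision repair. It held 82 contacts of 27 baits on chr12:53975227-54217002, with median scores of 10.9 with DMSO, 10.7 with UNC6852 and 10.5 with UNC1999. A bait at the end of HOXC6 (chr12:54031091-54032098) met chr12:54198097-54203167 at 25.96 with DMSO, 23.1 with UNC6852 and 33.7 with UNC1999. It met a farther bin (chr12:54208156-54213264) at 24.6, 21.4 and 30.3, and the bin between them at 27.4, 19.1 and 17.5. UNC1999 was thus highest in the outer bins and lowest in the middle one. A separate group of 44 contacts linked HOXC13, a hair and nail regulator, with chr12:53755111-53814781.

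HOXB and HOXD were less dense. HOXB had 29 core pairs of 190, or 15.3% (10.5 to 21.2), 21 of them at HOXB5, and HOXD had 14 of 120, or 11.7% (6.53 to 18.8), an interval that takes in the share over all pairs. Core contacts of HOXD and EVX2, from 8 of 10 genes, were made over a median of 406 kb, against 279 kb for HOXA, 270 kb for HOXB and 179 kb for HOXC. Together 159 of 830 HOX and EVX pairs were core, or 19.2% (16.5 to 22.0), in 37 loci and 30 of 41 genes. Leaving out HOXB5, the gene with most of them, gave 17.9%. Pairs of 1 cluster share baits and other ends, so these intervals cover counting error and are too narrow for independent contacts.

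**Figure D1:**
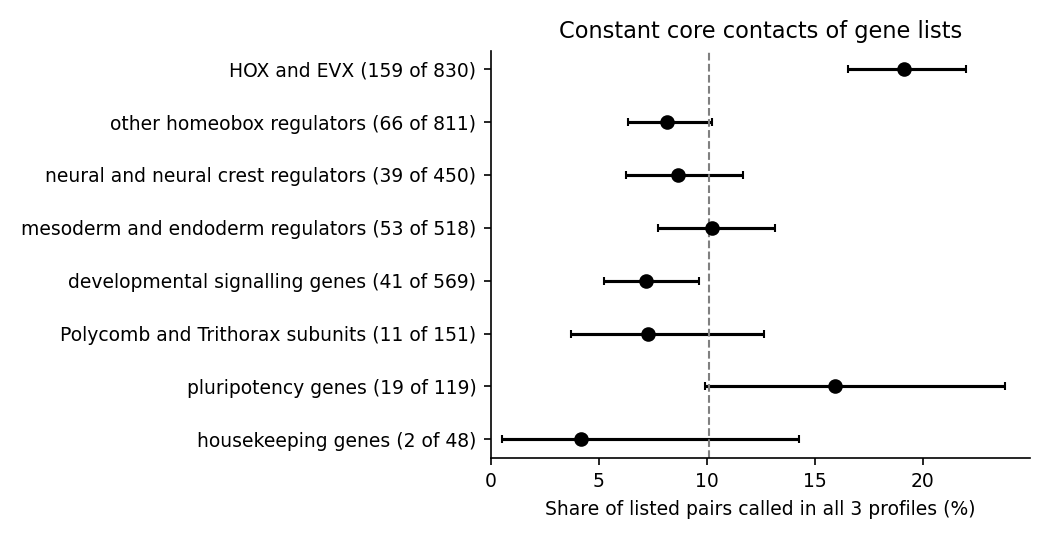
Share of listed cis pairs up to 500 kb with a gene end of each list at bait or other end that were called in all 3 profiles (x axis, percent), with exact 95% binomial intervals; the dashed line is the share over all pairs in range, 10.1%. The HOX and EVX interval, 16.5 to 22.0, lies above the line, and the interval of the developmental signalling genes, 5.22 to 9.65, lies below it.

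The other developmental lists did not stand above the background share. The lists are not complete: OTP and FOXI3, described below, were in none of them. FOXI3 had 29 core pairs of 79 (36.7%), which these shares leave out. Other homeobox regulators had 66 core pairs of 811 (8.14%, 6.35 to 10.2), neural and neural crest regulators 39 of 450 (8.67%, 6.24 to 11.7), and mesoderm and endoderm regulators 53 of 518 (10.2%, 7.76 to 13.2). Developmental signalling genes had 41 of 569 (7.21%, 5.22 to 9.65), and 10.2% when the gene end had to lie inside the fragment. Pluripotency genes had 19 of 119 (16.0%, 9.90 to 23.8), from 5 genes. Polycomb and Trithorax subunits had 11 of 151 (7.28%), of which KMT2D, a histone H3K4 methyltransferase, had 8, and 2.36% of the remaining pairs were core. Housekeeping genes had 2 of 48 (4.17%, 0.51 to 14.3). Protein-coding genes outside the lists stood at 9.73% and pairs with no gene end at 10.2%.

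Among homeobox genes the bait at BARX2, a regulator of muscle and epithelial development, met a bin 323 kb away at 18.6 with DMSO, 19.6 with UNC6852 and 14.98 with UNC1999. The bait at DLX3, which acts in placenta, skin and tooth, met a bin 137 kb away at 14.0, 13.4 and 17.3. MEIS2, a HOX cofactor whose promoter is printed above, was met by 4 baits, and the strongest, 218 kb away, scored 16.0, 13.0 and 15.1. The other MEIS2 contacts scored from 6.35 to 11.97 over the profiles. Each of these genes was above 12 in all profiles at its strongest contact, with the 3 profiles in a different order at each.

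Among neural regulators the SIM1 bait (hypothalamic neuron specification) scored 12.1 with DMSO, 11.7 with UNC6852 and 17.1 with UNC1999 with a bin 348 kb away. FEZF1, a forebrain and olfactory regulator, reached 8.25, 9.60 and 8.502 over 221 kb. NEUROG2, a proneural factor, reached 10.5, 10.4 and 7.63 over 171 kb. Among endoderm regulators SOX17 met a bin 291 kb away at 14.1, 13.7 and 14.3, and its neighbouring bin at 20.2, 18.7 and 12.6. FOXA1, a pioneer factor of endoderm, scored 12.8, 12.4 and 16.4 over 338 kb. SOX17 thus gave near-equal scores in 1 bin and a lower UNC1999 score in the next.

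Among signalling genes the bait at ALDH1A2, which makes retinoic acid, scored 14.4 with DMSO, 12.7 with UNC6852 and 12.9 with UNC1999 over 312 kb. At DKK1, a secreted Wnt antagonist, 8 neighbouring baits met the same bin (chr10:52485595-52490752). The bait at chr10:52313080-52313438 scored 11.9, 12.9 and 11.6, that at chr10:52314847-52315437 12.1, 11.8 and 11.3, and the bait that holds the printed promoter 6.01, 14.2 and 12.9. Over the 8 baits the scores ran from 5.65 to 12.1 with DMSO, 10.4 to 18.1 with UNC6852 and 6.58 to 14.2 with UNC1999. UNC6852 was above DMSO at 7 of the 8 and UNC1999 at 5, but the ranges overlapped and the baits share 1 other end. Of the pluripotency genes, TFAP2C, active in naive cells, scored 14.2, 16.3 and 13.7 over 341 kb, and TCF7L1, a Wnt-pathway repressor, 19.1, 20.7 and 12.3 with a bait 241 kb away.

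For Polycomb and Trithorax subunits the KMT2D end, shared with RHEBL1 in 1 bin, scored 9.78 with DMSO, 11.9 with UNC6852 and 14.5 with UNC1999 from a bait near TUBA1C, and 9.85, 11.8 and 8.40 from the next bait. EPOP, a PRC2-associated protein, scored 8.96, 13.9 and 8.90. The housekeeping list had only 2 core contacts, so these are not the strongest of many and are not ranked against the other lists. TUBA1B, a tubulin, scored 7.22, 6.02 and 6.27, and TFRC, the transferrin receptor, 8.04, 7.90 and 5.80. Their median was 7.63 with DMSO, 6.96 with UNC6852 and 6.03 with UNC1999, against 7.57, 7.85 and 7.65 over the core.

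The 10 strongest core contacts of at least 20 kb with a protein-coding gene end at the other end had no list gene at that end. Contacts whose gene end lay at the bait were not ranked here, and the HOXC6 bait contact above, with a lowest score of 23.1, was stronger than several of the 10. A bait 35.5 kb from RNASE3 met the bin of ANG, the ribonuclease angiogenin, 159 kb away at 35.1 with DMSO, 34.6 with UNC6852 and 36.7 with UNC1999. It met the next bin, at RNASE4, at 25.8, 26.1 and 23.4. A bait 27.3 kb from MASP1 met RTP2 over 397 kb at 34.3, 32.8 and 35.7, and SST, the somatostatin gene, over 354 kb at 23.4, 31.5 and 32.9. The bin beside SST (chr3:187676338-187681426), with no gene end, had the highest scores of UNC6852 and UNC1999 in the core, 89.6 and 98.3, against 34.6 in DMSO. Nearby bins of that 1 bait therefore ranged from near-equal scores to a difference of 1.04 on the asinh scale.

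FOXI3, a regulator of ectodermal placodes, met THNSL2 over 265 kb at 27.3 with DMSO, 35.0 with UNC6852 and 33.3 with UNC1999. A pair of baits near GATA4, a heart and endoderm factor, met the bin of BLK, a B-cell kinase, at 23.5, 25.1 and 27.5 and at 20.3, 35.3 and 36.3. The bait near ADAMTS8 met SNX19, a sorting nexin, over 435 kb at 19.98, 22.0 and 21.7. BOC, a Hedgehog co-receptor that shares its bin with CFAP44, scored 19.7, 20.2 and 21.4, and TVP23C 21.4, 19.7 and 19.9 from a bait near PMP22, a myelin protein gene. The IL6 bait, whose promoter is printed above, met 8 bins on 1 side, the strongest at 25.7, 23.9 and 25.03 over 172 kb.

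**Figure D2:**
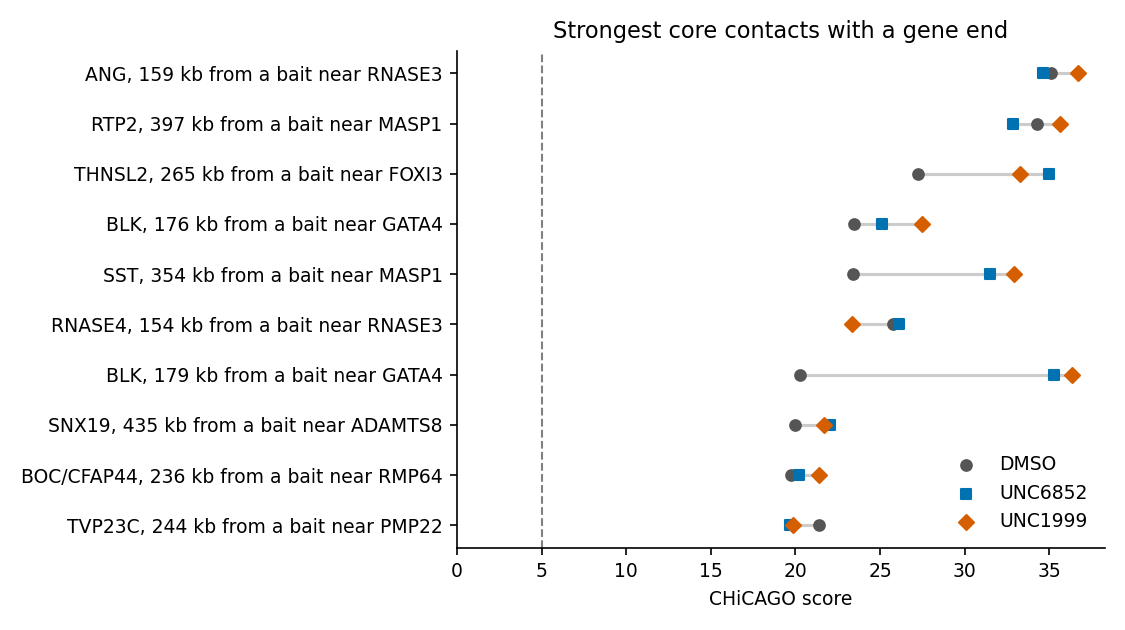
CHiCAGO scores (x axis, no unit) of the 10 core contacts of at least 20 kb with the highest lowest score and a protein-coding gene end at the other end, in DMSO, UNC6852 and UNC1999; the dashed line is the call at 5. All 30 points lie above 19, and the second BLK contact spans the widest range, from 20.3 to 36.3.

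Core contacts were unevenly spread over baits. The 4122 baits with a core contact were 19.6% of the 21000 baits in range, and 1946 of them had a single core contact, while 617 baits with at least 5 held 44.3% of the core. Joining core pairs whose both ends lay within 10 kb gave 4434 loci, of which 2686 held a single pair and 235 were seen from baits on both sides. The most contacts of a bait, 30, were reached at LIX1L, near GRK5 and near TNS3. The bait near GRK5, a kinase of G protein-coupled receptors, sent all 30 to its higher-coordinate side, 146 to 337 kb away. Baits near SAMD4A and at FOXI3 had 29 each, and the FOXI3 contacts had medians of 8.37 with DMSO, 11.2 with UNC6852 and 6.25 with UNC1999. By gene, RNF228 had 54 core contacts, LIX1L 37, FOXI3 29, SST 28, SGPP2, a sphingosine phosphate phosphatase gene, 26 and ANKRD34A 22. LIX1L and ANKRD34A shared 6 of these contacts and RNF228 and SGPP2 shared 4. HOXB5 had 21, and ADAMTS8, a metalloprotease gene, CPED1 and HOXC6 had 20 each. At CPED1 the 20 were 69.0% of its 29 pairs, the highest share of these 10 genes.

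The largest locus, with 94 contacts of 27 baits, spanned PAX3, a neural crest and muscle regulator, and had a gene end of RNF228 (chr2:222026507-222332285). Its median scores were 9.17 with DMSO, 9.21 with UNC6852 and 10.2 with UNC1999, and RNF228 had more core contacts than any other gene, 54 of 140 pairs. OTP, a homeobox gene of hypothalamic neurons, and WDR41 both had ends in the lower stretch, from chr5:77619261, that 2 loci of 74 and 51 contacts share. In the larger, median scores were 8.09, 9.57 and 10.3, and from its baits on the lower side the strongest contact scored 19.0, 18.1 and 18.7. Other large loci were at SAMD4A, an RNA-binding protein gene (63 contacts of 6 baits), EPHB3, an ephrin receptor gene (49), and TCF7L1 (46 contacts of 4 baits). A locus of 44 contacts from 3 baits on chr6:150952014-151325392 reached no protein-coding gene end.

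**Figure D3:**
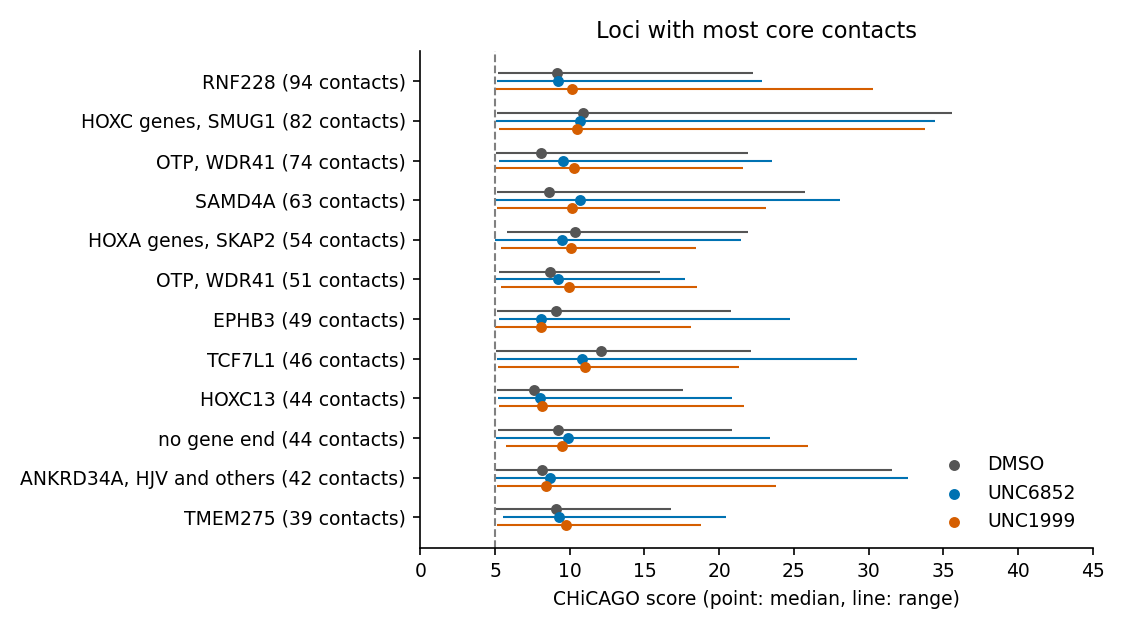
Median (point) and range (line) of CHiCAGO scores (x axis, no unit) over the core contacts of the 12 largest loci in each profile, named by gene ends at either end; the dashed line is the call at 5. Medians lie between 7.59 and 12.1 and the ranges of the 3 profiles overlap in every locus shown.

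The share of pairs called in all 3 profiles was smaller at longer distance. It was 21.3% under 10 kb and 11.8% at 10 to 20 kb, on few pairs, then 14.7% at 20 to 50 kb (13.2 to 16.3), 10.9% at 200 to 250 kb and 5.64% at 450 to 500 kb (5.10 to 6.22). Most core contacts, 9129 (83.5%), lay over 100 kb, as did most listed pairs in range, 95885 of 108024. Of those longer listed pairs 9.52% were core, against 10.1% over the whole range. The median distance of core contacts was 207 kb, against 224 kb for pairs called in 2 profiles and 253 kb for those called in 1. Beyond the range, 4.18% of pairs at 0.5 to 2 Mb were called in all 3, and 5.81% of pairs up to 500 kb between captured fragments were.

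**Figure D4:**
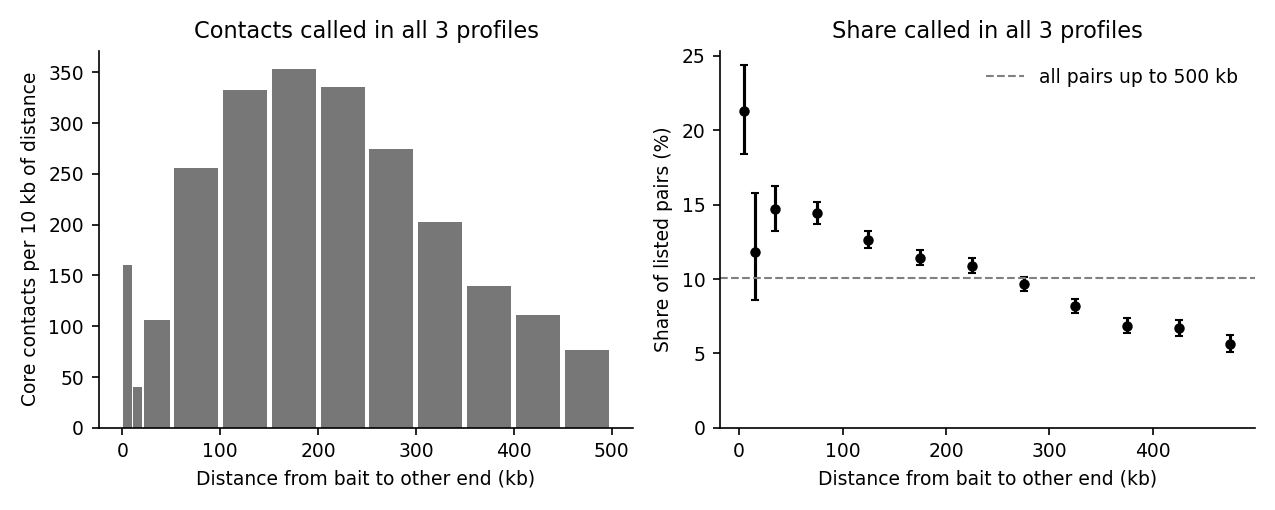
Left, core contacts per 10 kb of distance from bait to other end (kb); right, share of listed pairs called in all 3 profiles (percent) with exact 95% binomial intervals, the dashed line being 10.1% over all pairs. The share is 14.7% at 20 to 50 kb and 5.64% at 450 to 500 kb.

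At the other end, 1444 core pairs (13.2%, 12.6 to 13.9) reached a protein-coding gene end within 1000 bp, of 888 genes, against 12.1% of pairs called in 2 profiles and 12.04% of those called in 1. At 20 to 100 kb the shares were 21.3%, 16.9% and 17.4%, but at 100 to 500 kb, where most of the core lay, they were 11.6% (10.9 to 12.3), 11.3% and 11.4%, with overlapping intervals. At the bait the order was the opposite, with a protein-coding gene end for 21.04% of core pairs (20.3 to 21.8), 22.2% of those called in 2 and 23.5% of those called in 1. The other end overlapped a protein-coding gene in 52.2% of the core (51.2 to 53.1), 53.1% and 54.7%. A lncRNA gene end was reached at the other end by 13.2%, 11.7% and 10.6%. Neither end lay at a gene end in 69.2% of the core. Of all 73931 listed pairs in range with no gene end, 10.2% were core, near the 10.1% over all pairs. Of the 1444, 937 (64.9%) had at least 1 whole gene between bait and other end. The ANG contact spanned 4 genes and the most was 16. Genes between were not counted for pairs outside the core, so this share has no comparison.

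Return contacts used other baits than the pair itself. For core pairs of at least 50 kb with a captured fragment within 10 kb of the other end, a listed pair led back to within 10 kb of the bait in 3001 of 3440 (87.2%, 86.1 to 88.3). The share was 77.7% for pairs called in 2 profiles and 58.0% for those called in 1. Only captured fragments with a listed contact to an uncaptured other end on the same chromosome were counted, which can raise these shares. Such a fragment lay near the other end for 33.0% of core pairs, 26.7% of those called in 2 and 22.2% of those called in 1. With exactly 1 such fragment the return shares were 75.2% (72.4 to 77.8), 60.8% and 40.8%. A single neighbouring bait within 10 kb met the same other end for 78.2% of core pairs, 54.9% and 25.3%. The HOXA-SKAP2 locus and the 2 loci with OTP and WDR41 at one side are examples with contacts from baits on both sides. Both readouts come from the same libraries as the core and pairs of a locus share fragments, so no test was made.

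**Figure D5:**
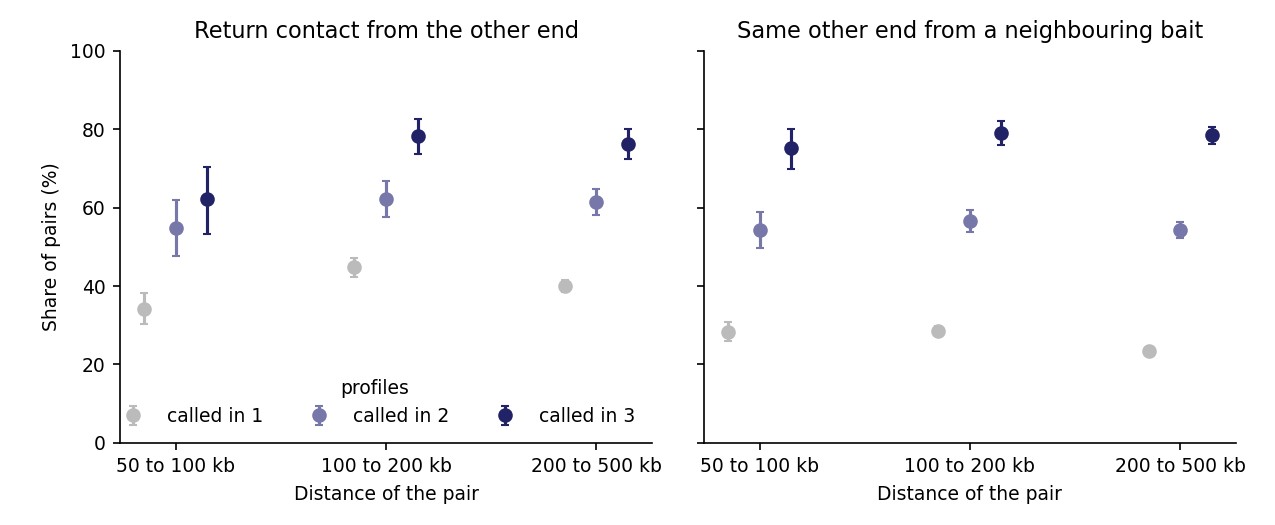
Share of pairs (percent) with exactly 1 candidate bait for which a return contact (left) or the same other end from a neighbouring bait (right) was listed, by distance of the pair and number of profiles in which it was called; bars are exact 95% binomial intervals. At 200 to 500 kb the return share is 76.3% for core pairs, 61.4% for pairs called in 2 and 40.0% for pairs called in 1.

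Baits with a core contact also more often had an uncaptured contact of 0.5 to 2 Mb in all 3 profiles, 5.85% of 4122 (5.15 to 6.61) against 1.56% of 16878 baits without one. Among baits with over 10 pairs in range the shares were 6.01% and 3.22%, and the intervals, 5.02 to 7.12 and 1.95 to 4.98, did not overlap. Any listed contact of 0.5 to 2 Mb, recurring or not, was found for 45.9% and 43.7% of all these baits. For those with over 10 pairs it was 42.2% and 42.4%, so the difference lay in the recurring contacts. A contact with another chromosome in at least 2 profiles was found for 1.43% (1.09 to 1.84) and 1.62% (1.44 to 1.83), with overlapping intervals.

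Within the core the profiles lay close together, as the rule requires all scores to pass 5. Median scores were 7.57 with DMSO, 7.85 with UNC6852 and 7.65 with UNC1999. The median difference on the asinh scale was 0.031 for UNC6852 minus DMSO and 0.013 for UNC1999 minus DMSO, against 0.049 and 0 over all pairs in range. A difference of 1 or more was reached by 17 core pairs higher in UNC6852 and 7 lower, where 15.8% and 13.5% of all pairs in range were past it. For UNC1999 minus DMSO the counts were 22 and 8, with 14.6% and 15% of all pairs, and for UNC6852 minus UNC1999 15 and 12, with 15.7% and 13.1%. Nothing is read from these counts, since the rule used the same scores. The 3 scores of a member spanned a median of 0.34 and at most 1.31.

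Of 210 genes with at least 5 core contacts, none differed from DMSO by 1 or more in its mean. The rule made this nearly certain, since few single core pairs reached such a difference, so nothing is read from it. UNC6852 minus DMSO was lowest at HOXC5 (-0.37), CCND3 (-0.34), HOXC4 (-0.33), SEPHS2 (-0.29) and BYSL (-0.28). HOXC4 and HOXC5 share an annotated end with HOXC6, and CCND3, a cell-cycle cyclin, lies next to BYSL, so these are not separate observations. At HOXC5 the median score of its 7 contacts was 8.91 with DMSO, 5.93 with UNC6852 and 8.47 with UNC1999. It was highest at DKK1 (0.34), TMEM43 (0.33), FGF20 (0.33), LRCH1 (0.32) and NUDT17 (0.31). FGF20, a fibroblast growth factor, had median scores of 6.36, 9.71 and 8.05 over 10 contacts.

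UNC1999 minus DMSO was lowest at AXL and HNRNPUL1 (-0.43 each, from 1 shared bait), PLEKHO1 (-0.34), MED9 (-0.33) and RASD1 (-0.32). All 7 core contacts of MED9 were also among the 8 of RASD1, so these are not separate observations either. It was highest at RHOB, a small GTPase gene (0.42), PCDH12 (0.36), DLX3 (0.36), CXCL14 (0.31) and IKZF3 (0.29). All 8 DLX3 contacts were higher in UNC1999 than in DMSO, and all came from 1 bait. Both treated profiles were compared with the same DMSO column.

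Many pairs lay close to the threshold: 2739 core pairs (25.1%) had a lowest score from 5 to under 5.5 and 3339 pairs missed by having 1 score from 4.5 to under 5. Just inside, a bait 364 kb from the bin of FAM114A2 and MFAP3 scored 5.13 with DMSO, 10.4 with UNC6852 and 5.0001 with UNC1999. Just outside, the ARG2 bait scored 6.08, 4.9998 and 7.01 with the bin of RDH12.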

How the data were processed

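The authors deposited 1 CHiCAGO score per fragment pair and condition, pooled over the libraries of that condition, per the labels. The build is GRCh38, per the submitters' processing notes; aligner, caller settings and read numbers are not given in the sources used here, so depth is unknown. Baits were taken to be DpnII fragments and other ends bins of several fragments. The file's coordinates give only lengths, with core medians of 642 bp for baits and 5256 bp for other ends, and do not show the enzyme. No column of per-sample values was left unused. Shares have exact (Clopper-Pearson) 95% binomial intervals, medians order-statistic intervals, and both cover counting error only. A gene was assigned when a fragment lay within 1000 bp of either annotated end of 20056 protein-coding genes of RefSeq GRCh38.p14, whose table gives no strand. All 493 list entries matched, 4 by an older symbol. Differences were taken between asinh scores. The naming rule took the 10 strongest contacts of at least 20 kb with a gene end at the other end, 3 per list, the 10 genes and 5 baits with most contacts, and the 5 lowest and 5 highest genes per treated profile. Members, lists and rules were chosen with earlier results of these data known, and loci, return contacts, HOX clusters and the search over all baits at the DKK1 bin after the values were seen. CTCF and NRF1 motifs were also searched in the promoter windows and are not reported here. Alternatives changed the score, gene window, distance, scaling and baits. Steps were tested on simulated data and run in Python 3.11.15 with pandas 2.3.3 and scipy 1.17.1.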

Additional observations from a re-analysis of the deposited data

How the results depend on the processing

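Of 103 recomputed values, 71 stayed within the interval of the reported value (for counts, within 1.5 times) and 32 moved outside it. Sign was checked only for the differences between profiles, of which 0 changed sign. A score of 7 left 3710 core pairs (12.2% of pairs reaching 7), a median distance of 219 kb, a UNC1999 minus DMSO median of 0.0273, HOX and EVX at 16.4%, housekeeping genes at 0% and long contacts at 4.33% of core baits. A score of 10 left 1038 pairs (14.6%), 229 kb and a UNC6852 minus DMSO median of 0.0184 (-0.0048 to 0.0368), an interval that includes 0. Quantile normalization gave a core of 10.7%, and medians of 0.0190 for UNC6852 minus DMSO and 0.00387 for UNC6852 minus UNC1999. The interval of the latter, -0.0032 to 0.0112, includes 0. Merging adjacent other ends gave 6751 sites. Leaving out the busiest 1% of baits, the core was 8.80% of pairs, at 201 kb, with long contacts at 4.77%. With gene ends inside the fragment, 9.76% of core other ends held one, HOX and EVX stood at 22.5%, signalling genes at 10.2% and Polycomb and Trithorax subunits at 3.64%; within 5000 bp, 25.98% of core other ends held one. A log2 scale gave a spread of 0.30. Counting genes at the other end only gave HOX and EVX 25.3%, other homeobox regulators 11.9%, neural 13.95%, mesoderm and endoderm 4.35% and signalling genes 4.82%, so the order of the lists below HOX and EVX depends on this choice. Return contacts, whose alternatives were chosen after seeing the data, were 82.0% within 5 kb, 89.96% within 20 kb and 75.2% with 1 candidate. The causes were not tested. No paired analysis was possible because each condition was 1 pooled column, and no replicate could be left out for the same reason.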

Other observations

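By chromosome, the core share was highest on 12 (12.6% of 7243 pairs, 11.8 to 13.4), 5 (12.1%) and 7 (11.8%). These hold the HOXC, OTP and HOXA loci, but chromosome 2, with the largest locus, stood at 11.1%. The core share was lowest on Y, with 3 core pairs of 76, and on 22 (4.87%, 3.66 to 6.34), 18 (6.13%) and 19 (6.39%). The cause of these differences was not tested.

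Among single core contacts, the largest UNC6852 minus DMSO difference was 1.30 on the asinh scale (6.29 with DMSO, 23.1 with UNC6852), at a bait 367 kb from its other end on chromosome 10 with no gene end at either. The lowest, -1.08, was at the ADAMTS8 bait over 474 kb (20.1 and 6.78). In the PAX3 and RNF228 region, a bait at chr2:222321219-222321808 scored 22.3 with DMSO and 6.51 with UNC1999, while a bait at chr2:222432798-222433343 scored 5.42 and 20.2 with a bin nearby. The extremes of both signs for UNC1999 minus DMSO thus included contacts of this 1 region.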
